A study of Xenopus tropicalis with 15 samples.

Results

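The proteins of the cytosolic ribosome are encoded by a gene family that is expressed in every cell, and its transcripts were followed here in the blood cells of a frog. Members were all genes of the deposited count table with a symbol beginning rpl or rps and a digit, apart from the ribosomal S6 kinases and names holding the word like, together with rplp0, rplp1, rplp2 and rpsa. The rule gave 81 of 26531 genes, 49 of the large subunit and 32 of the small subunit. Of these, 79 had enough counts to be tested, among 8939 tested genes in all, with 48 from the large and 31 from the small subunit. The set held 75 main ribosomal protein genes, the 4 paralogs rpl3l, rpl7l1, rpl22l1 and rps27l, the row rpl34p, which RefSeq lists as a pseudogene, and rps19bp1, whose product binds a ribosomal protein and is not one. The row rps28p9, for which RefSeq gives the synonym rps28, was counted among the main genes.

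The ribosome translates mRNA into protein, with a small subunit that reads the codons and a large subunit that joins the amino acids. In vertebrates the mRNAs of its proteins begin with a stretch of pyrimidines, the 5' TOP motif, through which the mTOR pathway controls their translation. Red blood cell precursors need many ribosomes to make globin, and in humans loss of 1 copy of a gene such as RPS19, RPL5 or RPL11 causes Diamond-Blackfan anaemia. Frog erythrocytes keep their nucleus, and erythropoietin (EPO) is the hormone that sustains red cell formation through its receptor, JAK2 and STAT5.

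All blood came from wild-type Xenopus tropicalis, was drawn from the heart with EDTA and was used as total peripheral blood cells, with no cell type sorted out. Cells were cultured for 1.5 h or 4.0 h with frog EPO at 1 ng/mL (the X. tropicalis protein expressed in E. coli), or were cultured for 1.5 h or 4.0 h in the same serum-containing diluted IMDM without EPO (control), or were harvested fresh before culture. Each of these 5 groups had 3 libraries, numbered 1 to 3, and 3' RNA-seq with Lasy-Seq gave whole-number counts per gene. The labels call the 3 libraries biological replicates without naming the animals behind them. The p-values therefore rest on the spread among these libraries, which may be partly technical.

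Libraries held 1329340 to 6351053 counts, of which 242428 to 1327528 came from ribosomal protein genes, and no main ribosomal protein gene had fewer than 1044 counts in any library. Totals were 3904765 to 5868379 in EPO 1.5 h, 2350234 to 4472724 in control 1.5 h, 2287764 to 6351053 in EPO 4.0 h, 1958663 to 3388564 in control 4.0 h and 1329340 to 2329659 in fresh cells. The 12 globin genes took 41.9% to 48.4% of the counts. The defining erythrocyte markers hba1, hbg1 and alas2 were present in every library. Markers of other blood cells were low in sum, at 365 to 486 CPM (counts scaled to a common library size, with TMM factors) for 6 thrombocyte genes, 219 to 533 CPM for 13 granulocyte and monocyte genes, 7.43 to 26.3 CPM for 10 T and NK cell genes and 39.3 to 73.7 CPM for 8 B cell genes. The T cell gene cd8b was at 0 in all 15 libraries, and cd3e, lck and cd79b had 4 to 47 counts in total. By contrast, the B cell gene ms4a1 had 2722 counts (mean 50.3 CPM) and prf1 of the T and NK list 475 (10.1 CPM). Both were counted in every library. Among thrombocyte markers tubb1 averaged 386 CPM. Among granulocyte and monocyte markers mmp9.1 and alox5ap averaged 125 and 112 CPM. The other thrombocyte, granulocyte and monocyte genes averaged at most 18.8 CPM. Libraries with the same replicate number deviated together across the 5 groups, so each comparison was also fitted with the replicate number as a block.

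Ribosomal protein transcripts made up 18.2% to 21.6% of the counts of a library, and the group means differed by less than the spread within a group. In EPO 1.5 h libraries 1, 2 and 3 the family took 18.6%, 21.4% and 20.7% of all counts, against 18.7%, 21.3% and 20.8% in control 1.5 h libraries. In EPO 4.0 h libraries it took 18.6%, 21.6% and 20.9%, against 18.8%, 21.2% and 19.9% in control 4.0 h libraries. In fresh libraries it took 18.2%, 21.5% and 20.8%. The means were 20.2% ± 1.49 in EPO 1.5 h, 20.3% ± 1.41 in control 1.5 h, 20.4% ± 1.55 in EPO 4.0 h, 19.9% ± 1.20 in control 4.0 h and 20.2% ± 1.74 in fresh cells (SD, n = 3 each). The 95% Wilson interval of a single library's share was at most 0.131 percentage points wide. It covers counting error only and treats reads as independent, although they were counted without molecular identifiers.

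The groups overlapped fully, and the libraries were ordered by their replicate number. Number 2 was the highest and number 1 the lowest library in 5 of 5 groups. Within a group the libraries spanned 2.40 to 3.31 percentage points, whereas the 5 libraries of 1 number spanned 0.411 to 1.02 points. The 18 differences between same-numbered libraries of 2 groups were 0.00572 to 1.02 points in size. Because the total is a sum over all transcripts, fewer cells of a type and less RNA per cell cannot be told apart here.

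**Figure D1:**
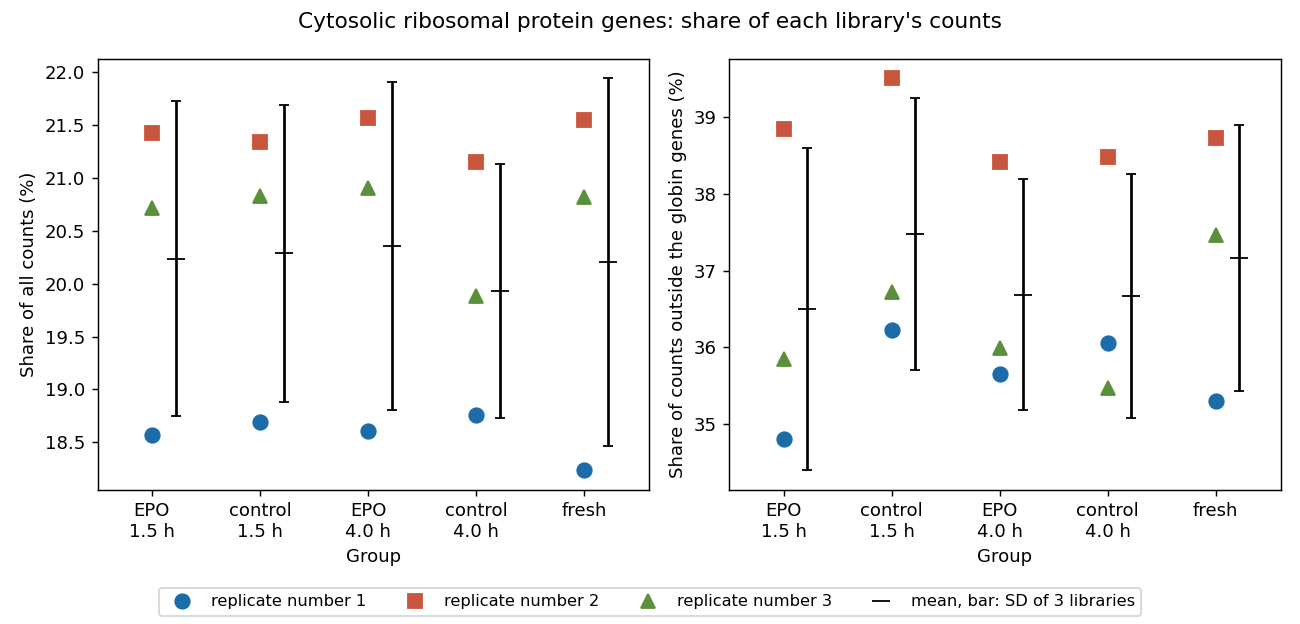
Share of each library's counts taken by the cytosolic ribosomal protein genes, in percent of all counts (left) and of the counts outside the globin genes (right), for 5 groups of 3 libraries; symbols give the replicate number, and the line with its bar is the mean and SD of the group. On the left, number 1 lies at 18.2% to 18.8% and number 2 at 21.2% to 21.6% in every group.

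With globin counts left out, number 2 was again the highest library in 5 of 5 groups, and number 1 the lowest in 4. The family then took 34.8%, 38.8% and 35.9% in EPO 1.5 h libraries 1, 2 and 3, against 36.2%, 39.5% and 36.7% in control 1.5 h libraries. In EPO 4.0 h libraries the values were 35.6%, 38.4% and 36.0%, against 36.1%, 38.5% and 35.5% in control 4.0 h libraries. Fresh libraries had 35.3%, 38.7% and 37.5%. On this scale all 3 EPO 1.5 h libraries were below their same-numbered control, by 1.42, 0.660 and 0.866 points, while their differences over all counts were -0.123, 0.0843 and -0.116 points. At 4.0 h the EPO minus control differences outside the globins were -0.410, -0.0655 and 0.523 points.

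The makeup of the family was similar in the 5 groups. Large subunit genes held 60.3% and small subunit genes 39.7% of the family's counts, and the ratio of large to small was 1.52 ± 0.021 in EPO 1.5 h, 1.51 ± 0.022 in control 1.5 h, 1.53 ± 0.034 in EPO 4.0 h, 1.50 ± 0.022 in control 4.0 h and 1.52 ± 0.034 in fresh cells (SD, n = 3 each). By replicate number the ratio was 1.48 to 1.51 in number 1, 1.53 to 1.56 in number 2 and 1.50 to 1.52 in number 3, so that numbers 1 and 2 did not overlap. The following shares are of counts, so they describe the libraries and not molar amounts. The small subunit gene rps29 held the most counts, at 2.53% of the family (2.37% to 2.67% over 15 libraries). It was followed by rpl38 at 2.29%, rpl36a at 2.27%, rplp1 at 2.23%, rpl37 at 2.08% and rps12 at 2.02%. The lowest main genes were rps25 at 0.615%, rps15a at 0.592%, rps9 at 0.529% and rpl10a at 0.412%. The most counted of the 75 main genes thus exceeded the least counted 6.15 times, and 70 of the 75 were among the 100 most counted genes of the table.

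A gene's share of the family had a coefficient of variation of 1.76% to 9.75% over the 15 libraries, with a median of 4.64% for the 75 main genes. The steadiest were rpl8 (1.76%), rpl27a (1.78%), rps10 (1.87%) and rps3 (2.10%). The most variable main genes were rps9 (9.75%), rps25 (8.28%), rpl10 (8.28%) and rpl28 (7.99%). Across the 75 genes the order of the shares had a Spearman correlation of 0.995 to 0.999 between any 2 group means and of at least 0.953 between any 2 libraries. Genes are not independent replicates, and all libraries share gene lengths and mapping, so these correlations are descriptions. Between libraries of a group, edgeR's fitted biological coefficient of variation had a median of 0.148 over the 79 tested members. Over all 8939 tested genes the median was 0.311. The fitted value is pulled towards that of genes with similar counts, so it is not the observed spread of a gene. Most members are among the most counted genes, so the 2 medians do not compare genes of like level.

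**Figure D2:**
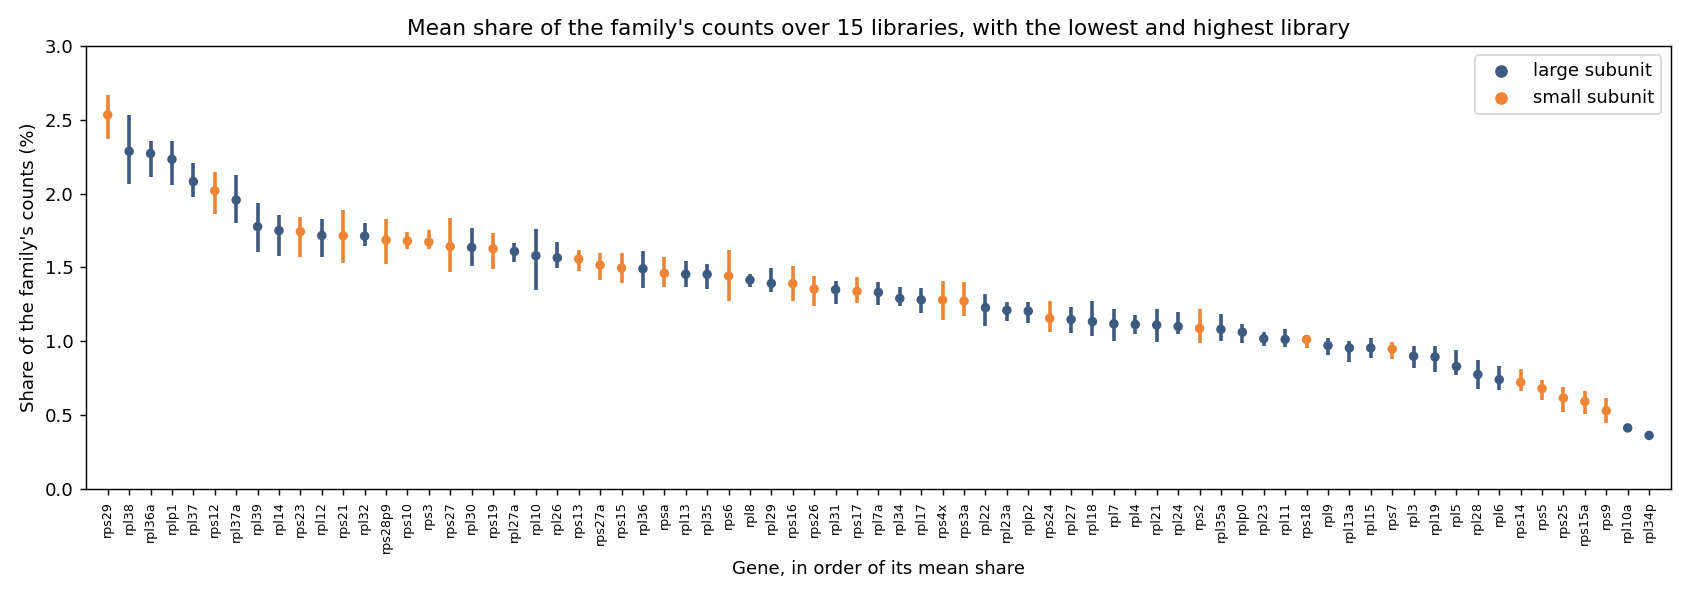
Share of the family's counts held by main ribosomal protein genes and the pseudogene rpl34p, in percent; points are means over 15 libraries and lines run from the lowest to the highest library. Shares fall gradually from 2.53% for rps29 to 0.361% for rpl34p, and large and small subunit genes are interspersed.

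EPO for 1.5 h moved no ribosomal protein gene past an adjusted p of 0.05 in edgeR's quasi-likelihood test (0 of 79, 0 at an unadjusted p under 0.05, smallest adjusted p 0.794), where 0.436% of all tested genes passed. DESeq2 and limma voom also called 0 of 79, with 1 gene each at an unadjusted p under 0.05. For these methods, in this and the later comparisons, the share of all genes called is not given here. The fitted values were small and nearly all on one side, with 77 of 79 below 0 (46 of 48 large and 31 of 31 small subunit genes) and a median log2 fold change of -0.099. Over all tested genes 52.4% were below 0 and the median was -0.023. In 67 of 79 genes EPO was lower than control in all 3 same-numbered pairs, a pattern that 16.7% of tested genes showed.

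That one-sidedness depended on how the libraries were scaled. Scaled by their total counts in place of TMM, which aligns the bulk of the genes, 38 of 79 members were below 0, 14 of 79 were lower in all 3 pairs, and the median was 0.00056, while the median of all genes was 0.078. Of all genes 41.5% were then below 0 and 11.1% were lower in all 3 pairs. The TMM factors were 1.07, 0.964 and 1.05 in EPO 1.5 h libraries 1, 2 and 3 and 0.982, 0.902 and 0.992 in control 1.5 h libraries. Under either scaling the members' median was below that of all genes, by a difference that no test was made for. Changing the scaling moves all genes by nearly the same amount. This order could therefore hardly differ between the 2 scalings, and its recurrence is not a separate check.

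**Figure D3:**
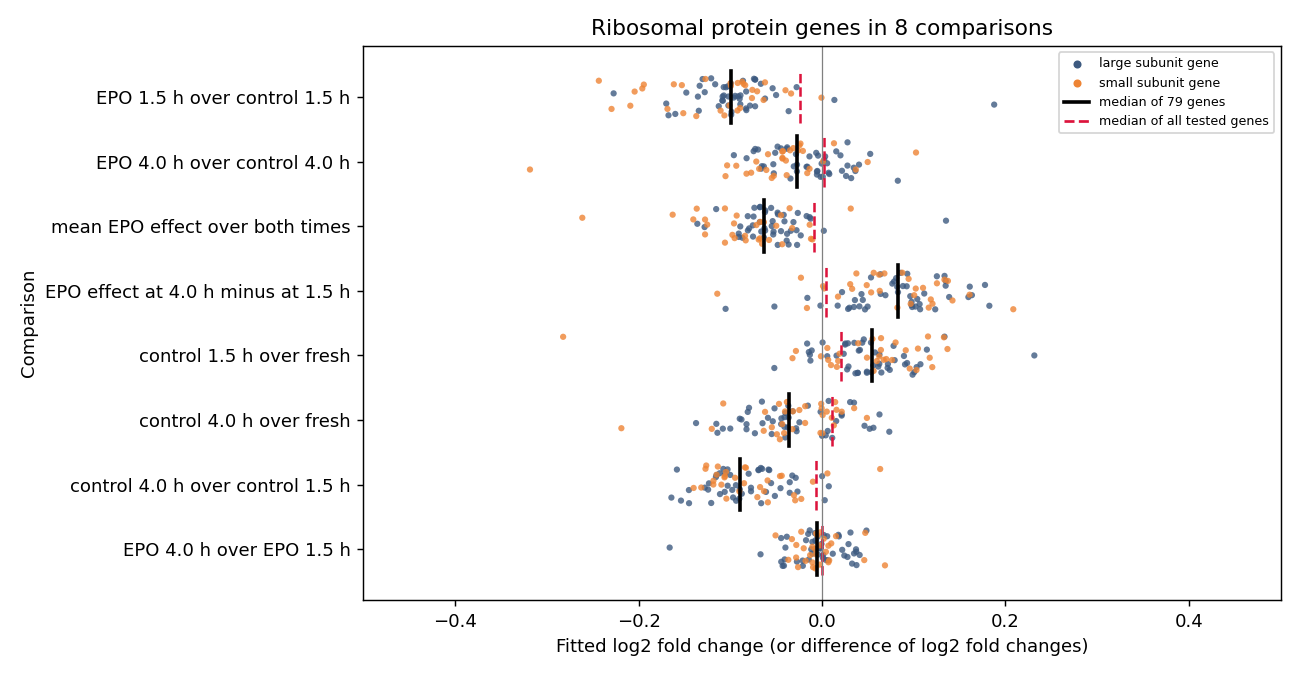
Fitted log2 fold changes of the 79 tested ribosomal protein genes in 8 comparisons (for the fourth row, the difference of 2 log2 fold changes); each point is a gene, with TMM-scaled libraries. All points lie between -0.32 and 0.23, and the family's median is farthest from that of all genes in EPO 1.5 h over control 1.5 h, in the EPO effect at 4.0 h minus at 1.5 h, and in control 4.0 h over control 1.5 h.

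The single gene called with the replicate block was rps21, a small subunit protein required in human cells for maturation of the small subunit's rRNA. It stood at 2903, 3405 and 3413 CPM in EPO 1.5 h libraries 1, 2 and 3, against 3274, 4002 and 3960 CPM in control 1.5 h libraries. Each EPO library was below its same-numbered control, and the 2 groups overlapped. Its log2 fold change was -0.21 ± 0.13 (SE, adjusted p = 0.808 in edgeR without the block), and -0.21 ± 0.054 with the block (adjusted p = 0.0270), in a fit that called 1.55% of all tested genes and in which 25 members had an unadjusted p under 0.05. The block with library totals in place of TMM called 0 members, with 5 at an unadjusted p under 0.05. For this and the other fits with the block, the share of all genes at an unadjusted p under 0.05 is not given here.

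Other members at the low end were rps9 at -0.24 ± 0.14, rps15a at -0.23 ± 0.14 and rps25, which in human cells serves initiation at internal ribosome entry sites, at -0.20 ± 0.15 (log2 fold change ± SE). With 851, 1176 and 941 CPM in EPO 1.5 h libraries 1, 2 and 3 and 1157, 1207 and 1148 CPM in control 1.5 h libraries, rps9 had 1 EPO library inside the control range and 2 below it. Of the paralogs of low count, the large subunit gene rpl7l1 had -0.23 ± 0.21 and rps27l -0.20 ± 0.27. At the other end rpl22l1 had 0.19 ± 0.20 and rpl13a 0.014 ± 0.13. The 95% intervals of all 79 genes lay within ±1 on the log2 scale, and those of 73 within ±0.5. These intervals and SEs are from the fit without the block, which counts differences between replicate numbers as error.

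By role, the stalk proteins that recruit translation factors to the large subunit had log2 fold changes of -0.13 (rplp0), -0.11 (rplp1) and -0.028 (rplp2), each with an SE of 0.12 to 0.13. rplp0 stood at 2050 ± 147 CPM in EPO 1.5 h and 2251 ± 165 CPM in control 1.5 h, and rplp1 at 4402 ± 410 CPM in EPO 1.5 h and 4745 ± 383 CPM in control 1.5 h (SD, n = 3). The small subunit protein rpsa, also known as a laminin receptor, had 2637, 3046 and 2746 CPM in EPO 1.5 h libraries, against 2990, 3335 and 3102 CPM in control 1.5 h libraries, a log2 fold change of -0.16 ± 0.12 (adjusted p = 0.881 in edgeR). One EPO library lay inside the control range, and each was below its same-numbered control. rps6, the substrate of the S6 kinases, had 2498, 3157 and 3062 CPM in EPO 1.5 h libraries, against 2422, 3441 and 3059 CPM in control 1.5 h libraries, so that 2 of 3 pairs were slightly higher with EPO (-0.034 ± 0.15). rps27a, which is made as a fusion with ubiquitin, had -0.089 ± 0.14.

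The genes tied to red cell disease in humans gave -0.062 ± 0.12 for rps19, -0.17 ± 0.13 for rps14, -0.062 ± 0.14 for rpl5 and -0.13 ± 0.14 for rpl11. rpl5 and rpl11, which carry the 5S rRNA into the large subunit, averaged 1616 ± 222 and 1984 ± 270 CPM in EPO 1.5 h and 1686 ± 212 and 2177 ± 342 CPM in control 1.5 h. rps19 averaged 3229 ± 251 CPM in EPO 1.5 h and 3371 ± 179 CPM in control 1.5 h (SD, n = 3). rpl3, close to the peptidyl transferase centre, had -0.12 ± 0.15, and rpl10, which in yeast is added late to the large subunit, had -0.10 ± 0.11. rpl36a at the tRNA exit site had -0.13 ± 0.13, rpl39 in the exit tunnel -0.099 ± 0.14 and rpl26 -0.083 ± 0.12. Adjusted p values for these genes were 0.896 or more in edgeR.

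Of the further subunit genes, fau gave -0.097 and the small subunit scaffold rack1 -0.13, and neither passed. Of 19 translation factors and related genes of the mammalian TOP class, 15 were below 0 with a median of -0.099, and 0 passed. With the replicate block 1 of the 19 rose, the nucleolar chaperone npm1, by 0.79 (adjusted p = 0.0374, against 0.204 without the block). Of 77 mitochondrial ribosomal protein genes 35 were below 0 (median 0.013), and of 53 tested ribosome biogenesis factors 23 were below 0 (median 0.014), with 0 passing in either list.

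Blood cell markers were examined in the same libraries. The summed level of 12 erythrocyte markers was 378450 to 440075 CPM in EPO 1.5 h and 410917 to 482549 CPM in control 1.5 h, with 8 of 12 below 0. Thrombocyte markers summed to 425 to 451 CPM in EPO 1.5 h and 374 to 451 CPM in control 1.5 h (4 of 6 above 0). Granulocyte and monocyte markers summed to 228 to 337 CPM in EPO 1.5 h and 243 to 329 CPM in control 1.5 h (7 of 12 tested above 0). T and NK cell markers summed to 7.43 to 11.9 CPM in EPO 1.5 h and 9.67 to 19.0 CPM in control 1.5 h, and B cell markers to 45.3 to 63.7 CPM in EPO 1.5 h and 39.5 to 58.1 CPM in control 1.5 h. In edgeR 0 markers of any of these lists passed, and with the replicate block the globin hba1 alone passed, on the lower side. The part of these levels in the ribosomal protein values was not tested.

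After 4.0 h of EPO edgeR called 0 of 79 members (0 at an unadjusted p under 0.05, smallest adjusted p 0.887), where 0.213% of all tested genes passed, and with the block 0 of 79 passed where 0.861% of genes did. DESeq2 and limma voom called 0 as well, also with 0 at an unadjusted p under 0.05. Below 0 were 56 of 79 members (30 of 48 large and 26 of 31 small subunit genes), against 49.8% of all genes, with a median log2 fold change of -0.027 for members and 0.0020 for all genes. EPO was lower in all 3 pairs for 21 of 79 members and for 15.5% of all genes. With library totals 21 of 79 members and 44.1% of all genes were below 0. The median was then 0.025 for members and 0.057 for all genes, so the direction from 0 turned with the scaling. Under both scalings the members' median was below that of all genes, by a difference that no test was made for. As at 1.5 h, this order could hardly differ between the scalings, so its recurrence is not a separate check.

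The lowest values at 4.0 h were -0.32 ± 0.28 for rps27l, -0.11 ± 0.13 for rps7 and -0.10 ± 0.11 for rps4x. Among the highest were 0.083 ± 0.20 for rpl22l1 and 0.053 ± 0.15 for rpl38 (log2 fold change ± SE). rps21 stood at 3038, 3481 and 3526 CPM in EPO 4.0 h libraries 1, 2 and 3, against 3319, 3738 and 3498 CPM in control 4.0 h libraries. Here 2 of 3 pairs were lower with EPO, and the log2 fold change was -0.072 ± 0.13 (adjusted p = 0.964 in edgeR). The stalk genes had values of -0.000355 (rplp0), -0.016 (rplp1) and 0.00092 (rplp2), and rpsa had -0.093 ± 0.12.

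Values for the genes of human red cell disease at 4.0 h were -0.025 ± 0.12 (rps19), -0.043 ± 0.13 (rps14), -0.027 ± 0.14 (rpl5) and -0.027 ± 0.14 (rpl11). rps6 had -0.031 ± 0.15, rps27a -0.026 ± 0.14, rpl10 -0.048 ± 0.11, rpl3 -0.038 ± 0.15, rpl26 -0.014 ± 0.12, rpl36a 0.032 ± 0.13 and rpl39 0.026 ± 0.14. Without the block, the 95% intervals of all 79 lay within ±1 and of 78 within ±0.5. Among the comparison lists 0 genes passed with or without the block; 10 of 19 TOP class genes, 30 of 77 mitochondrial ribosomal protein genes (median 0.13) and 22 of 53 biogenesis factors were below 0.

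Averaged over both times, EPO again moved 0 of 79 members past the threshold in edgeR (0 at an unadjusted p under 0.05, smallest adjusted p 0.555), where 1.19% of all tested genes passed, and DESeq2 and limma voom called 0 with 0 at an unadjusted p under 0.05. The median was -0.063, with 76 of 79 below 0, against a median of -0.0086 and 51.2% below 0 over all genes. With library totals 25 of 79 members and 40.9% of all genes were below 0, with medians of 0.012 for members and 0.071 for all genes. With the block rps21 alone passed (-0.14 ± 0.088 without the block, adjusted p = 0.586 in edgeR; -0.14 with it, adjusted p = 0.0199), in a fit that called 3.69% of all genes and gave 21 members an unadjusted p under 0.05. With the block, 0 members were called with library totals or with scaling to the family's own total, which removes a common shift. With the block, 2 members were called with globin genes left out, 3 with DESeq2 size factors and 4 with scaling to genes outside the family. Those called included rps21, rpsa and rps25, and each member called was below 0. The shares of all genes called under these scalings are not given here, so the counts are not read as a result about the members.

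The lowest mean EPO effects were those of rps27l (-0.26 ± 0.19), rps9 (-0.16 ± 0.098) and rps21, and among the highest were those of rpl22l1 (0.14 ± 0.14) and rpl23a (0.0020 ± 0.094). Among the lists 0 genes passed in edgeR without the block, and with it npm1 rose (0.61, adjusted p = 0.0099) as did the mitochondrial ribosomal protein genes mrpl46 and mrps18a. Of the erythrocyte markers hba1 and the transcription factor gata1 passed with the block, 1 on each side, and of the granulocyte and monocyte markers mpo, alox5ap and ncf1 passed with it, 1 on the higher and 2 on the lower side.

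Whether the 2 EPO effects differed was tested as an interaction, and 0 of 79 members passed in edgeR, DESeq2 or limma voom. Each gave 0 members an unadjusted p under 0.05, and the smallest edgeR adjusted p was 0.9998. In edgeR 0% of all genes passed. With the block 0 of 79 passed, 3 had an unadjusted p under 0.05, and 0.134% of all genes passed. The effect at 4.0 h minus that at 1.5 h was above 0 for 72 of 79 members with a median of 0.083, while 49.5% of all genes were below 0 and their median was 0.0048. With library totals it was above 0 for 57 of 79 members, while 53.9% of all genes were below 0. The medians were then 0.037 for members and -0.043 for all genes. The largest differences were 0.21 ± 0.20 for rps15a, 0.18 ± 0.29 for rpl7l1 and 0.18 ± 0.23 for rpl21, and the lowest -0.11 ± 0.39 for rps27l, -0.11 ± 0.28 for rpl22l1 and -0.052 ± 0.18 for rpl13a. Without the block, each of the 95% intervals lay within ±1 and 57 of 79 within ±0.5.

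Culture without EPO moved no ribosomal protein gene past an adjusted p of 0.05 in edgeR against fresh cells, at either time. That does not show that the family kept its level. In control 1.5 h against fresh, edgeR called 0 of 79 members (0 at an unadjusted p under 0.05, smallest adjusted p 0.755), where 0.324% of all genes passed; DESeq2 and limma voom called 0 with 0 at an unadjusted p under 0.05. With the block 0 of 79 passed, 5 had an unadjusted p under 0.05, and 1.31% of all genes passed. Above 0 were 69 of 79 members with a median of 0.055, while 48% of all genes were below 0 and their median was 0.021. Control was higher in all 3 pairs for 13 of 79 members and for 16.4% of all genes. By pair the members' medians were 0.098, 0.12 and -0.067 for numbers 1, 2 and 3, so number 3 ran against the others. With library totals 45 of 79 members were above 0, while 52.4% of all genes were below 0. The medians were then 0.0059 for members and -0.025 for all genes.

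Among the highest values were 0.23 ± 0.21 for rpl7l1 and 0.13 ± 0.13 for rpl14, and the lowest -0.28 ± 0.28 for rps27l, -0.052 ± 0.14 for rpl5 and -0.032 ± 0.12 for rps2. rps14 stood at 1540, 1745 and 1439 CPM in control 1.5 h libraries 1, 2 and 3, against 1317, 1543 and 1495 CPM in fresh libraries (0.12 ± 0.13), and the groups overlapped. rpl10 had 0.11 ± 0.11, rpsa 0.070 ± 0.12, rplp0 0.039 ± 0.12, rps19 0.019 ± 0.12, rpl11 0.054 ± 0.14 and rps6 -0.0011 ± 0.15. Over the same step 5 of 6 thrombocyte genes (median -1.43) and 11 of 12 granulocyte and monocyte genes (median -0.54) were below 0, with 0 passing in edgeR without the block and itgb3 and cybb falling with it. Their sums were 374 to 451 CPM in control 1.5 h and 365 to 467 CPM in fresh cells for thrombocytes, and 243 to 329 CPM in control 1.5 h and 315 to 533 CPM in fresh cells for granulocytes and monocytes. Each sum follows mainly its most counted genes, so it can differ from the median of the genes. These genes were tubb1 for thrombocytes, and mmp9.1 and alox5ap for granulocytes and monocytes. The part of these markers in the ribosomal protein values was not tested.

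In control 4.0 h against fresh, edgeR, DESeq2 and limma voom each called 0 of 79 members (0 at an unadjusted p under 0.05 in each, smallest edgeR adjusted p 0.854), where 0.0671% of all genes passed in edgeR. With the block 0 passed, 1 had an unadjusted p under 0.05, and 0.593% of all genes passed. Below 0 were 54 of 79 members with a median of -0.036, against 48.9% of all genes and a median of 0.011. With library totals 50 of 79 members and 48.3% of all genes were below 0, with medians of -0.025 for members and 0.020 for all genes. Among the lowest were rps27l (-0.22 ± 0.28) and rpl39 (-0.14 ± 0.14), and the highest were rpl7l1 (0.073 ± 0.21), rpl6 (0.063 ± 0.13) and rpl10 (0.056 ± 0.11). rpl39 stood at 3010, 3948 and 3395 CPM in control 4.0 h libraries 1, 2 and 3, against 3132, 4188 and 4066 CPM in fresh libraries, lower in each pair with overlapping groups. Of the other lists, itgb3, an integrin of thrombocytes, was the 1 gene that passed in edgeR, on the lower side.

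Between control 4.0 h and control 1.5 h, edgeR, DESeq2 and limma voom each called 0 of 79 (0 at an unadjusted p under 0.05 in each, smallest edgeR adjusted p 1.00), where 0.0112% of all genes passed in edgeR. With the block 0 passed, 9 had an unadjusted p under 0.05, and 0.0895% of all genes passed. Below 0 were 74 of 79 members with a median of -0.090, against 50.7% of all genes and a median of -0.0069, and 40 of 79 members were lower in all 3 pairs, against 13.3% of all genes. With library totals 57 of 79 were below 0, 17 were lower in all 3 pairs and the median was -0.031. Of all genes 44.0% were then below 0 and 10.3% were lower in all 3 pairs, with a median of 0.051. The lowest were rpl22 (-0.16 ± 0.15), rpl7l1 (-0.16 ± 0.21) and rpl38 (-0.15 ± 0.15), and the highest rps27l (0.064 ± 0.28), rpl13a (0.0075 ± 0.13) and rps4x (0.0060 ± 0.11). rpl22 stood at 2141, 2766 and 2228 CPM in control 4.0 h libraries 1, 2 and 3, against 2313, 3022 and 2659 CPM in control 1.5 h libraries, lower in each pair with overlapping groups.

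Between EPO 4.0 h and EPO 1.5 h the fitted values lay close to 0. edgeR, DESeq2 and limma voom each called 0 of 79 (0 at an unadjusted p under 0.05 in each, smallest edgeR adjusted p 1.00), where 0.257% of all genes passed in edgeR and 0.503% with the block, which called 0 members and gave 0 an unadjusted p under 0.05. Below 0 were 48 of 79 members with a median of -0.0050, against 50.1% of all genes and a median of -0.00042. With library totals 27 of 79 members and 48.3% of all genes were below 0. The median was then 0.0066 for members and 0.010 for all genes, so the direction from 0 turned with the scaling. The highest values were those of rps15a (0.069 ± 0.14), rpl36a (0.049 ± 0.13) and rps21 (0.047 ± 0.12), and the lowest those of rpl22l1 (-0.17 ± 0.19), rpl34p (-0.067 ± 0.15) and rps27l (-0.051 ± 0.27). The comparisons described share libraries (each control group serves several), so their values are not independent of each other.

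The ribosomal protein genes differed by replicate number. In the fit with the block, the term for the number passed an adjusted p of 0.05 in edgeR for 67 of 79 members (41 of 48 large and 26 of 31 small subunit genes), where 6.95% of all tested genes passed. Libraries of number 2 were higher than those of number 1 in all 79 members, with a median log2 fold of 0.29, and those of number 3 were higher than number 1 in 75 of 79, with a median of 0.17. Over all genes these medians were -0.0023 and -0.0087. The test was added after the data had been seen, and the 5 libraries of a number may come from 1 blood sample, so it compares these samples and not animals. Number accounted for 71.4% and group for 11.5% of the members' variation in log2 CPM, against 18.5% and 35.6% over all tested genes. Group has 5 levels and number 3, and a factor with more levels takes up more variation even without an effect. The shares of the 2 factors are therefore not directly comparable. The first principal component of the 79 members held 77.8% of their variance.

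**Figure D4:**
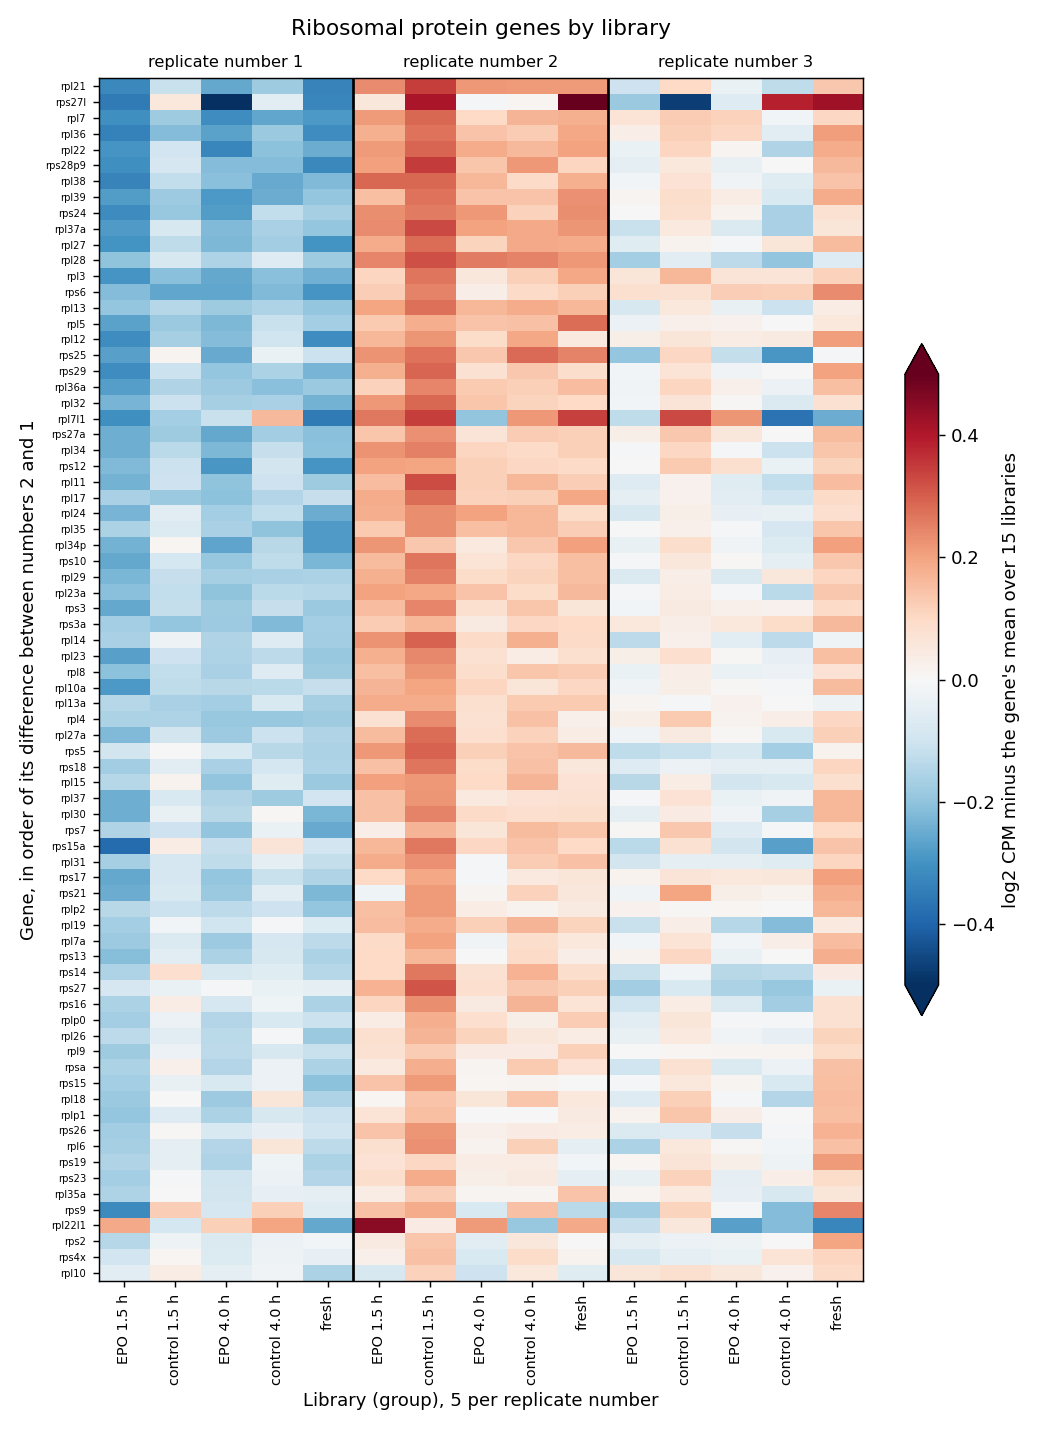
Level of tested ribosomal protein genes in 15 libraries, as log2 CPM minus the gene's mean, with libraries in blocks of 5 by replicate number and genes ordered by their difference between numbers 2 and 1. Most rows are low (blue) in number 1 and high (red) in number 2 in all 5 groups, while rps27l, rpl7l1 and rpl22l1, the rows of low count, vary more between the libraries of a number.

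In the examples that follow, libraries of numbers 1 and 2 did not overlap, while those of number 3 overlapped others in some genes. rpl13 had 2560 to 2657 CPM in the 5 libraries of number 1, 3288 to 3546 CPM in number 2 and 2721 to 3039 CPM in number 3, with no overlap between any 2 numbers. rpl21 had 1773 to 2068 CPM in number 1, 2586 to 2839 CPM in number 2 and 2047 to 2448 CPM in number 3, where numbers 1 and 3 met at their edges. rpl22 had 1971 to 2313, 2766 to 3022 and 2228 to 2811 CPM in numbers 1, 2 and 3, where number 3 overlapped both others. In rpl12, which also passed, numbers 2 and 3 overlapped widely, at 3575 to 4029 and 3523 to 3992 CPM.

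Some members followed another order. rps27 was lowest in number 3 (2890 to 3225 CPM), with 3113 to 3286 CPM in number 1 and 3501 to 4107 CPM in number 2. rpl28 was nearly equal in numbers 1 and 3 (1353 to 1489 and 1356 to 1502 CPM) and higher in number 2 (1808 to 1943 CPM). rps6 was as high in number 3 as in number 2, with log2 folds over number 1 of 0.38 and 0.37, and rps21 likewise with 0.24 and 0.23. The 12 members that did not pass included rpl10, rpl18, rpl35a, rpl6, rps2, rps4x, rps9 and the low-count rpl7l1, rpl22l1 and rps27l. rpl10 had 2848 to 3256 CPM in number 1, 2957 to 3439 CPM in number 2 and 3219 to 3388 CPM in number 3, which overlap (adjusted p = 0.248 in edgeR), and rpl18 was just outside the threshold (adjusted p = 0.052).

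The family-wide shift between numbers held when libraries were scaled otherwise. The term passed for 66 of 79 members with library totals, where 6.99% of all tested genes passed, and for 65 with DESeq2 size factors (6.86%). It passed for 68 with globin genes left out (7.14% of all tested genes) and 68 with scaling to genes outside the family (6.88%). Leaving out any 1 of the 15 libraries gave 62 to 70 of 79, with the share of all genes in those fits not given here. Scaled to the family's own total, which removes a common shift, it passed for 40 of 79 and for 1019 of 8939 genes, so the makeup of the family also differed by number.

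**Figure D5:**
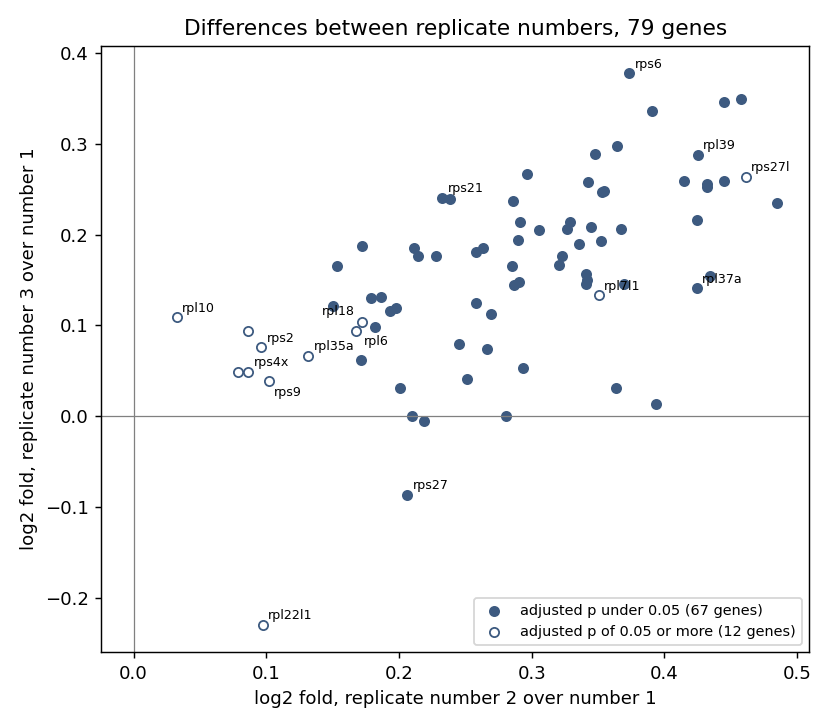
Log2 fold of replicate number 2 over number 1 (horizontal) and of number 3 over number 1 (vertical) for the 79 tested ribosomal protein genes; filled points passed an adjusted p of 0.05 for the replicate number in edgeR (67 genes) and open points did not (12). All genes lie to the right of 0, and rps27, rpl22l1, rpl19 and rps14 lie below 0 on the vertical axis, rpl19 and rps14 only just.

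Over all tested genes 621 of 8939 passed for the number and 4451 were higher in number 2 than in number 1. Of the further subunit genes fau and rack1 passed, as did 9 of 19 TOP class genes (eef1a1, eef1d, eef1g, eif3h, eif3k, eif3l, tpt1, naca and btf3), 17 of the 19 being higher in number 2 than in number 1 (median 0.21). Of 77 mitochondrial ribosomal protein genes 1 passed (mrps24), with 56 higher in number 2 than in number 1 (median 0.13). Of 53 tested biogenesis factors 5 passed (nop10, ddx21, gnl2, rsl24d1 and sbds), with 36 higher in number 2 (median 0.26). In number 3, 40 of the 77 and 20 of the 53 were higher than in number 1, with medians of 0.040 and -0.16. The 58 biogenesis factors in the count table summed to 1804 to 1914, 2230 to 2421 and 1816 to 2067 CPM in numbers 1, 2 and 3. Mitochondrial ribosomal protein genes summed to 1228 to 1344, 1354 to 1541 and 1205 to 1376 CPM. The globin share was 46.7% to 48.4% in number 1, 43.9% to 46.0% in number 2 and 41.9% to 44.4% in number 3. Erythrocyte markers summed to 402053 to 455577 CPM, 409373 to 482549 CPM and 377270 to 441567 CPM in numbers 1, 2 and 3, and 7 of 12 passed.

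Granulocyte and monocyte markers summed to 329 to 533 CPM in number 1, 219 to 372 CPM in number 2 and 228 to 315 CPM in number 3; 0 of 12 tested were higher in number 2 than in number 1, and 5 passed (mpo, csf3r, mmp9.1, ncf1 and cd68). Thrombocyte markers summed to 411 to 486, 365 to 425 and 383 to 467 CPM in numbers 1, 2 and 3, with 0 of 6 higher in number 2 than in number 1 and 0 passing. T and NK cell markers summed to 7.43 to 17.1, 9.55 to 26.3 and 8.28 to 23.8 CPM, and B cell markers to 39.3 to 61.6, 42.8 to 55.1 and 39.5 to 73.7 CPM, in numbers 1, 2 and 3, with 0 passing. The granulocyte and monocyte markers and part of the erythrocyte markers thus differed by number, and their part in the shift of the ribosomal protein genes was not tested.

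Genes with a similar copy are uncertain, since reads could be split between copies and how the authors' counting handled them is not given in the sources used here. rps27l, a p53-responsive paralog in humans, had 20.7 ± 2.98 CPM in EPO 1.5 h and 23.6 ± 6.95 CPM in control 1.5 h, beside 3254 ± 416 and 3489 ± 537 CPM for rps27. rpl22l1 had 60.1 ± 11.6 CPM in EPO 1.5 h and 52.7 ± 2.83 CPM in control 1.5 h, beside 2430 ± 427 and 2665 ± 355 CPM for rpl22. rpl7l1 had 61.3 ± 12.8 CPM in EPO 1.5 h and 71.6 ± 13.6 CPM in control 1.5 h, beside 2262 ± 402 and 2395 ± 381 CPM for rpl7 (SD, n = 3 each). Each paralog thus took a small part of the counts of its pair, in counts and not in molar amounts. The pseudogene row rpl34p held 0.361% of the family's counts, and reads from rpl34, after which it is named, could contribute to it. The untested rows were rpl3l, a muscle paralog in mammals, with 6 counts in all 15 libraries, and rps19bp1, with 83. No gene of the deposited count table had the symbol rpl41, rpl26l1, rpl36al or rpl39l.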

How the data were processed

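The deposited table holds whole-number counts per gene for 15 libraries, made by the authors. Per the submitters' processing notes, fastp 0.21.0, BWA 0.7.17-r1188, Salmon and R 4.3.2 were used; their roles, the genome build, the annotation, the strand setting and any rounding of Salmon's estimates are, in the sources used here, not given.

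The counts were analysed in R 4.3.3. Genes were filtered with filterByExpr, libraries scaled by TMM, and all 5 groups fitted together with edgeR 4.0.16 (robust quasi-likelihood test, two-sided, Benjamini-Hochberg adjustment over 8939 genes, threshold 0.05). CPM values use TMM-scaled library sizes. limma 3.58.1 (voom) and DESeq2 1.42.0 were alternatives, beside other scalings, filters, leaving out each library and the replicate number as a block. The scripts were tested on simulated data. Levels are limited by counting error, at most 0.131 percentage points for the family's share.

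Same-numbered libraries deviated together: over 1411 genes their 30 pairs had correlations of 0.280 to 0.627, against -0.391 to 0.052 for 60 pairs of different number, and 15 of 15 libraries correlated best with their own number. The labels number the replicates and do not say what a number shares.

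Named genes were members of known role, paralog pairs, members past the threshold, and the 3 highest and 3 lowest of each comparison among those with a mean of at least 10 CPM; others were named after their values were seen. Some genes that this rule names are not reported here. The members and lists (further subunit genes, TOP class genes, mitochondrial ribosomal proteins, biogenesis factors, blood cell markers) were chosen with earlier results of these data known.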

Additional observations from a re-analysis of the deposited data

How the results depend on the processing

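Member counts stayed at 0 in 18 of 18 alternatives each for EPO 4.0 h against control 4.0 h, both controls against fresh, and both 4.0 h against 1.5 h comparisons, and in 24 of 24 for the difference of EPO effects. For EPO 1.5 h 4 of 23 alternatives moved the count: the replicate block called 1, also with DESeq2 size factors (1) or without globins (1), and 2 when scaled to non-member genes. For the mean EPO effect the block called 1, and 3, 2 and 4 under those scalings. The block with other scalings was fitted only for EPO 1.5 h and the mean EPO effect. The remaining comparisons were not put through those settings, so the counts of alternatives are not comparable between them. With TMM the block called 1.55% of all tested genes for EPO 1.5 h and 3.69% for the mean EPO effect. The shares of all genes under the other scalings are not given here. The replicate number term called 40 when scaled to the family total. The block changed no other member's call.

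Medians followed the scaling. Scaling to the family's own total removes a common shift, so a median near 0 there follows by construction. For the other scalings the cause was not tested. For EPO 1.5 h the median was 0.00056 with library totals, -0.118 scaled to non-members, 0.0055 to the family total and -0.056 with no filter on low counts; with the block it was 0.00061, -0.118 and 0.0045 under the 3 scalings. For the mean EPO effect it was 0.012 with totals, -0.0015 with the family total, -0.018 with no filter, and 0.011 and -0.0016 with the block. The difference of EPO effects had 0.037 and 0.0042, and control 4.0 h over 1.5 h -0.031 and -0.0022, with totals and family total. Outside the globins the family's share averaged 36.5% in EPO 1.5 h, 37.5% in control 1.5 h, 36.7% in EPO 4.0 h, 36.7% in control 4.0 h and 37.2% in fresh cells.

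Leaving out 1 library unbalances the replicate numbers by construction. Medians then ran from -0.200 to -0.0062 (EPO 1.5 h), -0.070 to 0.045 (EPO 4.0 h), -0.111 to -0.012 (mean), -0.011 to 0.175 (difference), -0.048 to 0.146 (control 1.5 h over fresh), -0.114 to 0.025 (control 4.0 h over fresh), -0.157 to 0.011 (control 4.0 h over 1.5 h) and -0.094 to 0.100 (EPO 4.0 h over 1.5 h). The direction turned at EPO 4.0 h without EPO 4.0 h library 1 (0.045) or control 4.0 h library 2 (0.042), for the difference without control 1.5 h library 2 (-0.011) or EPO 1.5 h library 1 (-0.0032), and for control 4.0 h over 1.5 h without control 1.5 h library 2 (0.011). It turned for control 1.5 h over fresh without control 1.5 h library 2 (-0.048) or fresh library 1 (-0.028), and for EPO 4.0 h over 1.5 h without EPO 4.0 h library 1 (0.063) or EPO 1.5 h library 2 (0.100). For control 4.0 h over fresh it turned without control 4.0 h library 1 (0.0041) or 3 (0.0052) or fresh library 2 (0.025) or 3 (0.020). The rps21 value at 4.0 h was 0.0026 without EPO 4.0 h library 1; at 1.5 h its adjusted p ran from 0.0095 to 1.00 over the alternatives, and for the mean from 0.0043 to 0.912.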
